A study of Mus musculus with 3 samples.

Results

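The ATP-sensitive potassium (KATP) channel locus holds Abcc8 and Kcnj11, which lie head to tail on the minus strand of mouse chromosome 7 (mm9). Its members were chosen by position and by the authors' enrichment call: every region called enriched for monomethylated lysine 4 of histone H3 (H3K4me1) that overlapped either gene or lay within 50 kb of either was taken, which gave 6 of the 65709 regions in the list. The presence of regions here is therefore a description of how the locus was picked, and no statistical test was made on it. Chromatin immunoprecipitation with an H3K4me1 antibody from Abcam and sequencing (ChIP-seq) was done on islets, the endocrine cell clusters of the pancreas, from CD1 mice aged 8 to 12 weeks per the labels (the study's text gives ICR mice of 8 to 10 weeks). Isolated islets recovered for 4 to 6 h and were then kept for 4 days with the cytokines TNFα at 0.16 ng/ml, IL-1β at 0.25 ng/ml and IFNγ at 1.6 ng/ml. DNA from 4 ChIP experiments was pooled into 1 library, so no value below has a replicate error, and the H3K4me1 regions of untreated islets and the expression libraries were not analysed here. The list gives positions alone, so the depth is unknown, region edges are known to 200 bp, and an uncovered stretch is one where no region was called at this depth and threshold. Whether the list was merged with the regions of untreated islets is not stated. Whole islets mix several cell types, and a mark in fewer cells cannot be told apart from a weaker mark in every cell.

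The KATP channel couples glucose metabolism to insulin secretion in pancreatic β-cells. Kcnj11 encodes Kir6.2, the subunit that lines the potassium pore, and Abcc8 encodes SUR1, the regulatory subunit that binds nucleotides and is the target of the sulfonylurea drugs. When ATP rises after glucose entry the channel closes, the membrane depolarises, voltage-gated calcium channels open and insulin granules are released. H3K4me1 is found at active and poised enhancers and on the flanks of active promoters, and often spreads into the first introns of transcribed genes.

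To show what kind of sequence lay under the mark and outside it, stretches of 300 bases without annotated exons were read from mm9 on the minus strand, the strand of both genes, 5′ to 3′. Capitals mark matches on either strand to the searched motifs other than the E-box. The motifs searched were the Sp1 GC box (GGGCGG), the TATA box (TATAAA), the E-box (CANNTG), the forkhead or FOX motif (TGTTTAC), the Maf motif (TGCTGAC), the homeobox motif of the Pdx1 type (TAATNA), AP-1 (TGANTCA), STAT (TTCNNNGAA), IRF (GAAANNGAA) and NF-kB (GGGANTTTC). A match says that these letters are present, and is no evidence of binding. The sequence TAATTA fits the homeobox motif on both strands and is counted on each.
Middle of the region upstream of Abcc8, chr7:53442851-53443150: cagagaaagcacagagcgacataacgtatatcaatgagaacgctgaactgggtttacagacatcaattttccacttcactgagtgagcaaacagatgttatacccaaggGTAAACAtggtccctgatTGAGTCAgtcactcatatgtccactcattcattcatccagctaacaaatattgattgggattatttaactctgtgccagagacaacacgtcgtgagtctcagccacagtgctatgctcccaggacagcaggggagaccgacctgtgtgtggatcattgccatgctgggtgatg
Middle of the widest region, in intron 10 of Abcc8, chr7:53404951-53405250: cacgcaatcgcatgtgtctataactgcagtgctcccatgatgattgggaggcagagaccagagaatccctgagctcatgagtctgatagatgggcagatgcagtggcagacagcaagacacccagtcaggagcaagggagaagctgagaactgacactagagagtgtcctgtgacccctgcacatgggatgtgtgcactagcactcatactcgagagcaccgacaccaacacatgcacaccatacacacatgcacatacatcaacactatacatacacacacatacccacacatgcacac
Middle of intron 28, the largest intron that lies whole in the region of exons 24 to 29, chr7:53369270-53369569: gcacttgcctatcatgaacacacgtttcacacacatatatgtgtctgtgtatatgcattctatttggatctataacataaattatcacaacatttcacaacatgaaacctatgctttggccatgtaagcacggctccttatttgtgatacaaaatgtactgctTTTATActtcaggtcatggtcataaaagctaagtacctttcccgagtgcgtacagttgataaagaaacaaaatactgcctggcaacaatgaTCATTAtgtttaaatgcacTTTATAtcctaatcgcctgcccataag
Middle of the sequence between the genes, under the region that covers Kcnj11, chr7:53357601-53357900: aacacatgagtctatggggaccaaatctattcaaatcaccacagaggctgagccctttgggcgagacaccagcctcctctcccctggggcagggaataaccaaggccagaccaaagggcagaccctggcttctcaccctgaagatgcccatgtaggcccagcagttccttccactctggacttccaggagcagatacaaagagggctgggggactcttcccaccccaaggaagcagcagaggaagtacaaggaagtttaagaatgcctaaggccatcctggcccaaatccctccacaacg
Uncovered sequence between the Abcc8 start and the upstream region, chr7:53438453-53438752: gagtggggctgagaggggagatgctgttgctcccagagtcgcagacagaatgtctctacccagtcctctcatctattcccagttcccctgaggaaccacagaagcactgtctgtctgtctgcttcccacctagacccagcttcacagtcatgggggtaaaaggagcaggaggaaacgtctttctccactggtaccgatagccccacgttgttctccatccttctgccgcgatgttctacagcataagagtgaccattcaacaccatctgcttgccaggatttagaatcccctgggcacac
The upstream region held a forkhead match at bases 110 to 116 and an AP-1 match at bases 128 to 134 of the printed stretch. The stretch in intron 28 held 2 TATA matches and 1 homeobox match at a GC content of 36.7%. The other 3 stretches held none of the capitalised motifs, the uncovered one included.

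The window from 50 kb beyond Kcnj11 to 50 kb beyond Abcc8 spanned 183 kb, of which 82.6 kb (45.2%) lay under a region. The 6 regions were 12.8, 0.2, 7.6, 57.8, 2.4 and 1.8 kb wide, in order along the chromosome from the Kcnj11 side, with a median of 5.0 kb, against a median of 1.2 kb over the list. Of the covered bases, 94.9% fell in the 4 regions that touch the genes. These 4 regions ran from 2932 bp beyond the 3′ end of Kcnj11 to 1403 bp short of the Abcc8 start, a stretch of 84.4 kb in which 78.4 kb (92.9%) was covered and 6.0 kb was not. The map of the locus shows this block over both genes, with a pair of isolated regions upstream and none over the 37050 bp of Nomo1 that fall inside the window.

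**Figure D1:**
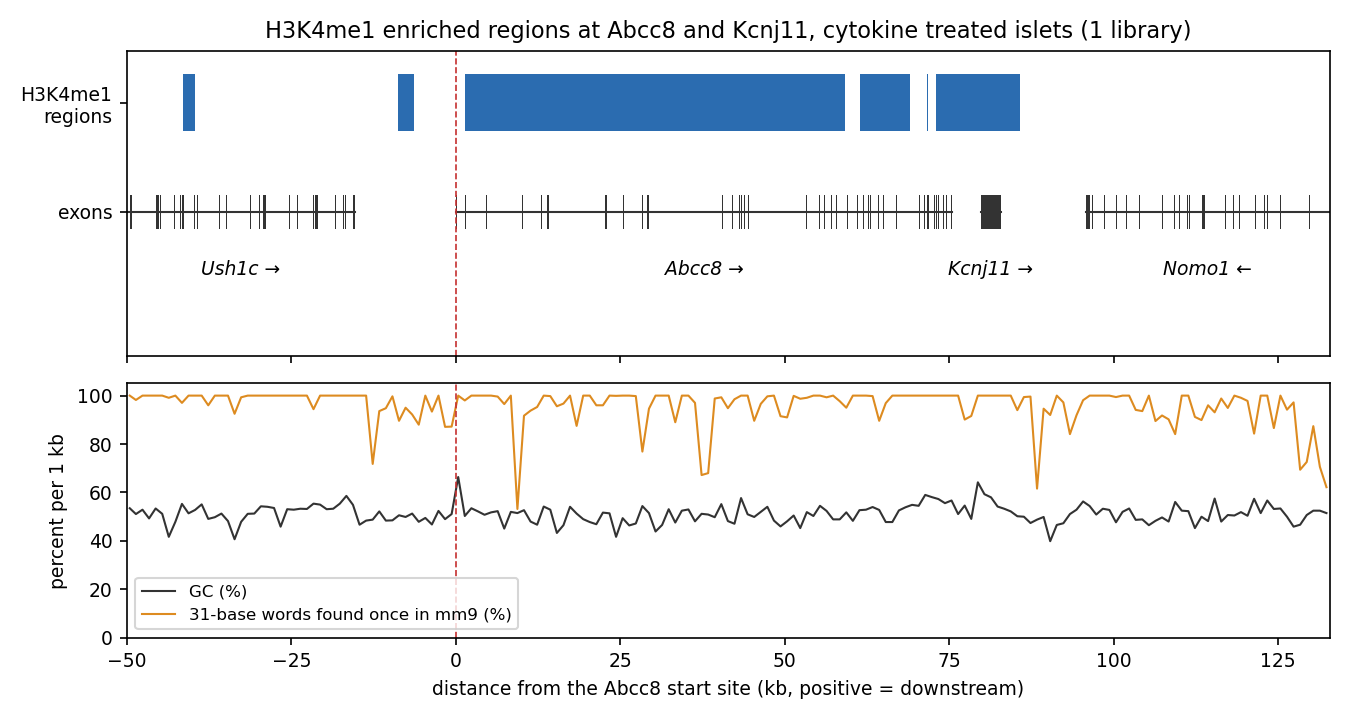
Upper panel, H3K4me1 regions (blue) above annotated exons (black, with thin exons drawn at a minimum width), with arrows for the direction of transcription, against distance from the Abcc8 start in kb. Lower panel, the GC percent and the percent of words of 31 bases found once in mm9, per 1 kb. The 4 regions over Abcc8 and Kcnj11 cover 92.9% of an 84.4 kb stretch that stops 1403 bp short of the Abcc8 start (dashed line).

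Abcc8 (ENSMUSG00000040136.8, chr7:53359893-53435403, minus strand) is 75.5 kb long, with 2 annotated transcripts that share 1 start site. Regions covered 68108 bp of it, or 90.2%, and left 7403 bp uncovered. Its introns were covered over 90.9% of their bases, its exons over 80.7% and its coding sequence over 81.9%. The mark therefore lay over nearly the whole gene body, with exons somewhat less covered than introns. Of its 39 exons, 30 were covered whole, exons 32 and 35 in part, and exons 1, 22, 23, 30, 31, 33 and 34 not at all. Of its 38 introns, 28 were covered whole, 5 in part and 5 not at all.

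The region at chr7:53376201-53434000 was 57.8 kb wide and lay entirely inside Abcc8, from intron 1 to intron 21, with exons 2 to 21 under it. It held 55371 bp of intron and 2429 bp of coding sequence, so it was mostly non-coding. In the list 5 regions were wider, which made it the 6th widest, at 48.2 times the median width. Regions of at least 50 kb numbered 11, or 0.0167% of the list, and 8 of the 11 lay inside 1 protein-coding gene. The share of all regions that lie inside a gene was not counted, so this is no trait of wide regions. It covered the 11221 bp of intron 10, the longest intron of the gene, and the 8647 bp of intron 6 without a break.

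Toward the 3′ end of Abcc8 the cover was broken. The region at chr7:53366401-53374000, 7.6 kb wide, carried exons 24 to 29 whole. It was separated from the widest region by an uncovered 2.2 kb with exons 22 and 23. A region of a single 200 bp bin at chr7:53363601-53363800 held 116 of the 121 bp of exon 32 and 84 bp of intron. Uncovered stretches of 2.6 kb with exons 30 and 31 and of 1.2 kb with exons 33 and 34 lay on its sides. Regions of a single bin numbered 1938 in the list.

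Kcnj11 (ENSMUSG00000070561.2, chr7:53352533-53355607, minus strand) has a single exon of 3075 bp, with 1170 bp of coding sequence and 1905 bp of UTR, and all of it was covered. The region over it, chr7:53349601-53362400, was 12.8 kb wide, and 718 regions of the list were wider. It reached 6793 bp upstream of the Kcnj11 start and 6006 bp downstream of it. The 4285 bp between the genes was covered throughout, and the same region held the last 2508 bp of Abcc8, with exons 36 to 39 whole. The pore gene and the end of the SUR1 gene thus lay under 1 unbroken region.

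Both genes had a region over the gene span, as had 64.5% of the 22350 protein-coding genes on chromosomes 1 to 19 and X. The share of the gene span under regions had a median of 4.76% over these genes, with quartiles of 0 and 19.6%. Abcc8, at 90.2%, was above 21882 of them (97.9%). Kcnj11 was covered over its whole span and was 1 of 371 such genes (1.66%), none of them 50 kb or longer. Since short genes can be covered whole by a single region, the members were also set against genes of 0.5 to 2 times their length. Of 4771 genes of this length class 4766 (99.9%) had a lower share than Abcc8, and their median was 6.03%. For Kcnj11, 3628 of 3831 (94.7%) had a lower share and 202 an equal one, with a median of 0. Among genes of at least 50 kb, 12 of 4837 (0.248%) had 80% or more of the span covered, Abcc8 being 1 of them. The plot of covered share against length shows Abcc8 far above most genes of its length.

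The 4 genes of the length class of Abcc8 with a higher share were Sfi1 (61.6 kb, 98.7%), Syt13 (41 kb, 96.7%), B4galt5 (50.7 kb, 93.9%) and Fam108c (42.5 kb, 90.3%), named after their values were seen. Repeated sequence was measured at the KATP channel loci and not at these 4 genes. Syt13 belongs to the synaptotagmin family. The first start site of Syt13 lay 255 bp from the nearest region, that of B4galt5 318 bp and that of Fam108c 1398 bp, whereas that of Sfi1 was covered. Uncovered first starts were common, with 15398 of all 22350 protein-coding genes having one.

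**Figure D2:**
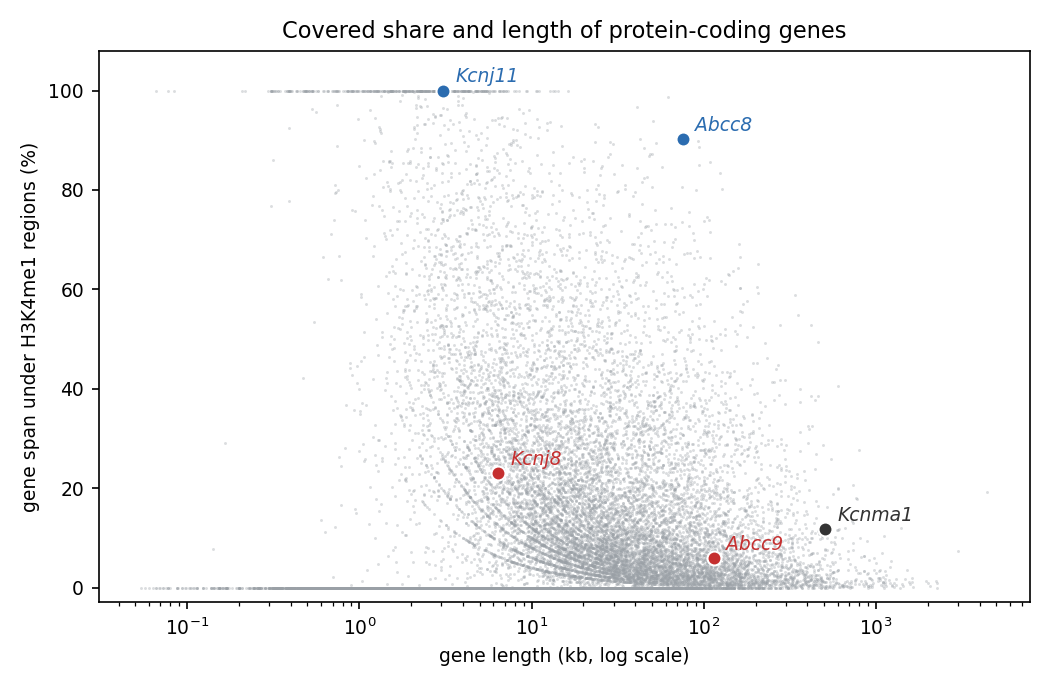
Each grey point is 1 protein-coding gene, with its length in kb on a log axis and the percent of its span under H3K4me1 regions on the vertical axis, in 1 library. Abcc8 (90.2%) and Kcnj11 (100%) are in blue, the other KATP channel genes Abcc9 (5.94%) and Kcnj8 (23%) in red, and the potassium channel gene Kcnma1 (11.7%) in black.

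The 2 start sites differed. Of all protein-coding genes 39.1% had an annotated start site under a region, and this held for Kcnj11 and not for Abcc8. At Kcnj11 all 50 bins of 200 bp within 5 kb of the start were covered, as in 0.237% of the genes. At Abcc8 none of the 25 bins before the start was covered, and 18 of the 25 after it were. The first exon and most of intron 1 (3.86% covered) fell in an uncovered stretch of 7.8 kb around the start. The nearest region began 1403 bp downstream of the start. Of the genes with an uncovered first start, 32.6% likewise had a region that began within 2000 bp downstream, so this arrangement was common in the list. Over all genes the covered share was 30.9% just before the start and 31.2% just after it, was highest (32.4%) at 1100 bp downstream, and was 7.79% at 4900 bp upstream and 14.3% at 4900 bp downstream. Within 5 kb of the start Abcc8 thus had its cover on the downstream side alone, and Kcnj11 on both sides.

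**Figure D3:**
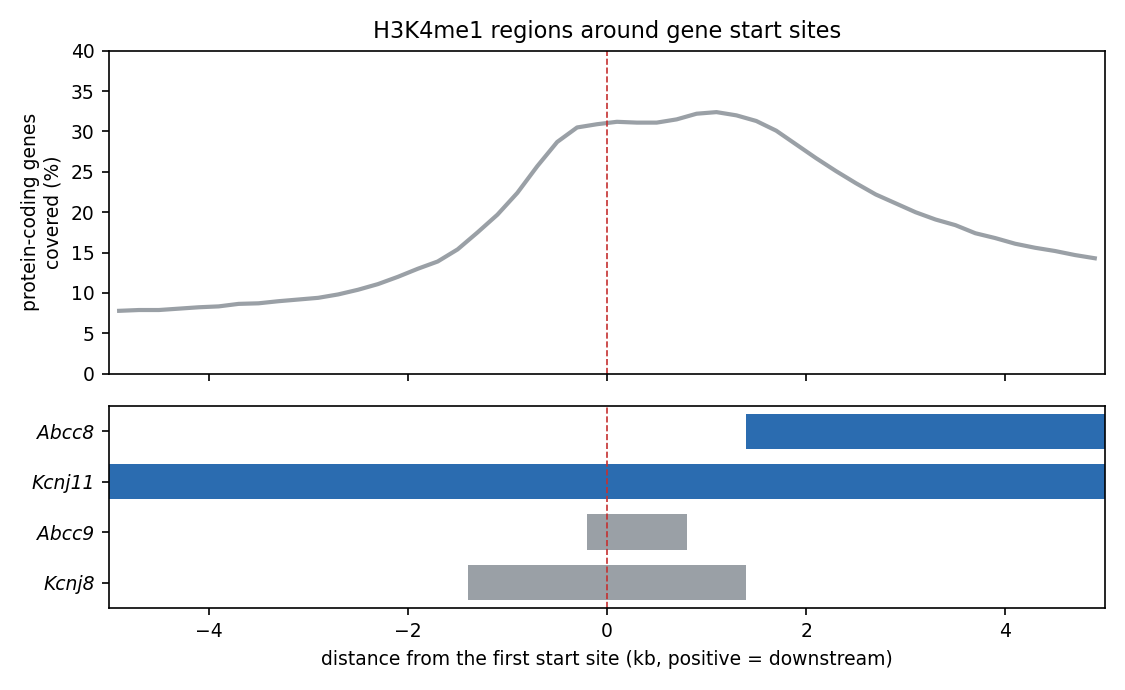
Upper panel, the percent of 22350 protein-coding genes covered by an H3K4me1 region in each 200 bp bin, by distance from the first start site in kb. Lower panel, the covered bins of the 4 KATP channel genes, with all 50 bins covered at Kcnj11 and 18, all downstream, at Abcc8.

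The 1 kb around the Abcc8 start had a GC content of 62.5% and an observed over expected CpG ratio of 0.779, with 0 bp covered. The 1 kb around the Kcnj11 start had a GC content of 65.3% and a CpG ratio of 0.571, with all 1000 bp covered. Words of 31 bases found once in mm9 made up 99.8% of the window at Abcc8 and 100% at Kcnj11, so by this measure both windows were almost free of repeated sequence. Over all protein-coding genes, the first start was covered in 44% (95% exact binomial interval 43 to 45) of the 10195 genes with a CpG ratio of 0.6 or higher and in 20.3% (19.6 to 21) of the 12155 genes below it, where the intervals cover counting error alone. By its CpG ratio Abcc8 belonged to the class with more covered starts, in which its own was uncovered, and Kcnj11 to the class with fewer, in which its own was covered.

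Upstream of Abcc8 the region at chr7:53441801-53444200 was 2.4 kb wide and lay between genes, 6398 bp from the Abcc8 start and outside Ush1c, the next gene on that side. It was the region of the printed stretch with the forkhead and AP-1 matches, and it held 1 match to each of these in its 2400 bp. Of the 1850 regions of this width with sequence analysed, 35.5% held a forkhead match and 53.4% an AP-1 match. It also held 1 IRF match (57.8% of those regions), 1 TATA match (71.8%) and 3 homeobox matches (94.3%). It held none to the GC box (41.4% of those regions held one), Maf (34.8%), STAT (53.2%) or NF-kB (8.38%) motifs. The last region, chr7:53475001-53476800, was 1.8 kb wide and lay inside Ush1c, a scaffold protein gene known for its part in hair cells and intestine, with 230 bp of Ush1c exons under it. It lay 39598 bp from the Abcc8 start and was the member nearest to the 50 kb limit. Just beyond the limit were regions of Ush1c at 55.2 kb and of Nomo1 at 61.9 kb. An uncovered 30.8 kb separated the region in Ush1c from the upstream one, and 64 regions of the list were wider than that gap.

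The neighbours were covered far less than the channel genes. Ush1c was covered over 5073 bp of its 43.2 kb (11.8%), with a start site under a region. Nomo1, which lies beyond Kcnj11 on the opposite strand, was covered over 1200 bp of its 50.5 kb (2.38%), with its start uncovered. The covered sequence of the window had a GC content of 51.1% and a CpG ratio of 0.241, and the uncovered sequence 51.2% and 0.236. The share of words found once was 96.3% in covered and 95.3% in uncovered sequence, and 99.1% in the 7403 uncovered bp of Abcc8. Covered and uncovered sequence of the window thus had nearly the same composition and share of unique words. The uncovered bases of Abcc8 had a GC content of 54.8%.

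Across the 6 regions, AP-1 matched 37 times (0.448 per kb, against 0.366 over all regions) and the Maf motif 18 times (0.218 against 0.18). The GC box matched 26 times (0.315 against 0.389), and 11 of these lay in the 12.8 kb region over Kcnj11 (0.859 per kb). Motifs rich in A and T were thinner than over the list, with 27 TATA matches (0.327 against 0.749) and 7 forkhead matches (0.0847 against 0.181). The homeobox motif was also thinner, with 106 matches (1.28 against 2.28 per kb), each TAATTA being counted on both strands. The GC content of the covered sequence was 51.1%, against a median of 45.9% over all regions (quartiles 42.2 and 50), and its part in these densities was not tested. The STAT motif matched 17 times (0.206 against 0.332), IRF 18 times (0.218 against 0.373) and NF-kB 4 times (0.0484 against 0.0378). The E-box, the most frequent, matched 507 times (6.14 against 5.82).

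Abcc9 encodes SUR2, the regulatory subunit of KATP channels of heart and smooth muscle, and Kcnj8 encodes Kir6.1, the pore subunit of vascular KATP channels. They lie in the same order on the minus strand of chromosome 6. The same rule gave 8 regions in 237 kb there, which covered 11.4 kb, or 4.8%, against 6 regions and 45.2% at Abcc8 and Kcnj11. More regions were thus called at Abcc9 and Kcnj8, and they were narrow, at 400 to 3800 bp. Abcc9 was covered over 5.94% of its 114 kb and Kcnj8 over 23% of its 6.42 kb, and 1324 of the 16505 bp between them were covered. Both had a covered start. The Abcc9 start lay under a region of 1000 bp and the Kcnj8 start under one of 2800 bp. At Abcc8 and Abcc9 the pattern was therefore opposite, a covered body with an uncovered start against a covered start with a nearly bare body. In a single library this contrast was not tested.

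**Figure D4:**
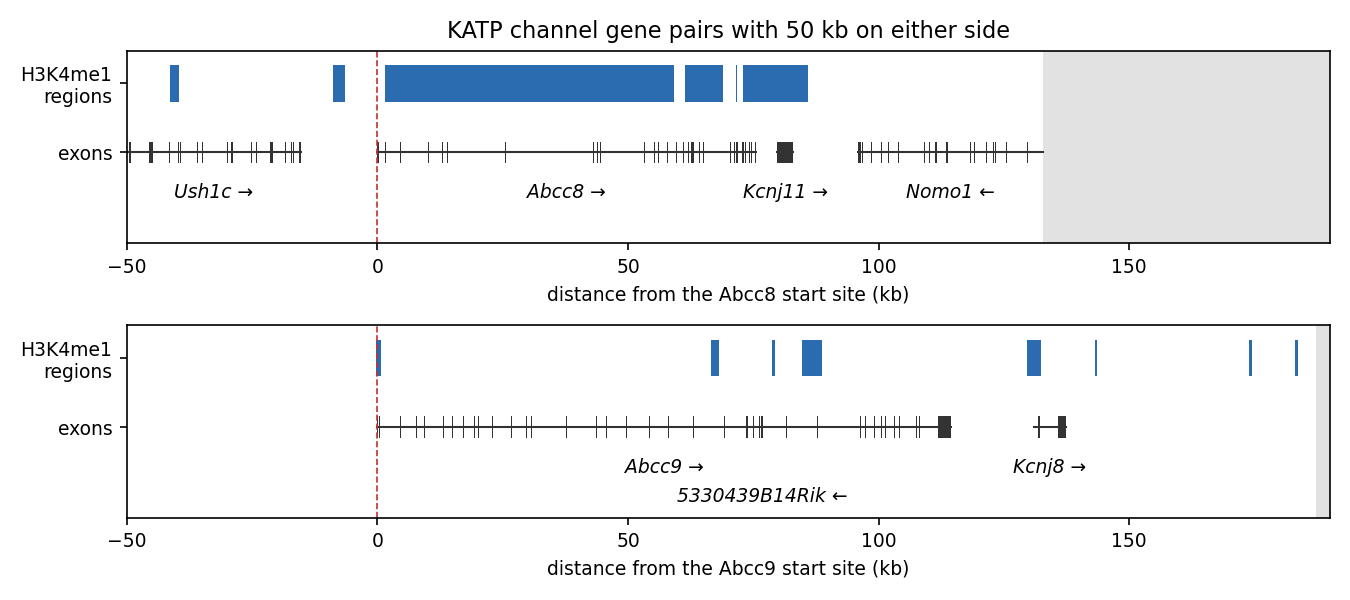
H3K4me1 regions (blue) and exons (black) at Abcc8 and Kcnj11 and at Abcc9 and Kcnj8 on the same scale, with distance from the start of the SUR gene in kb and thin exons drawn at a minimum width. Grey shading lies outside the window and was not drawn. Regions cover 45.2% of the upper window and 4.8% of the lower one.

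Within their gene families the members stood at the top of the order. Of 15 Kcnj genes, which encode inwardly rectifying potassium channels, 9 had a covered start and 11 a region over the gene, with a median covered share of 12.6%. Over all protein-coding genes, 39.1% had a covered start and 64.5% a region over the gene, with a median of 4.76%. Kcnj11 was the only 1 of the 15 above 80%, and the next was Kcnj12 at 37.3%. At 3.08 kb Kcnj11 is also the shortest of the 15, and Kcnj12 is 48.6 kb long. Of all protein-coding genes 1.66% were covered over their whole span, as Kcnj11 was. Of 10 Abcc genes, which encode ABC proteins of subfamily C, 6 had a covered start and 9 a region over the gene, with a median of 12.2%. Abcc8 was the only 1 of the 10 above 80%, and the next was Abcc3 at 24.1%. Of all protein-coding genes of at least 50 kb, 0.248% had 80% or more covered. Abcc6, Kcnj5, Kcnj10, Kcnj14 and Kcnj16 were at 0.

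The steps before and after channel closure were described with lists of 4 or 5 genes each. The 4 genes of glucose entry and metabolism had a median covered share of 56.6%, with Slc2a2, the glucose transporter GLUT2, at 63.6%, G6pc2, of the glucose phosphatase family, at 68.6%, Pcx, the pyruvate carboxylase, at 49.5%, and Glud1, the glutamate dehydrogenase, at 11%. The 5 calcium channel genes, which act after the KATP channel closes, had a median of 26.9%. Their pore subunits Cacna1c, Cacna1d and Cacna1a were at 40.6%, 26.9% and 10.1%, and the auxiliary subunits Cacnb2 and Cacnb3 at 23.5% and 33.7%. Every gene of both lists had a region over the gene, against 64.5% of all protein-coding genes. Of genes of at least 50 kb, a length that Pcx and all the calcium channel genes but Cacnb3 exceed, 503 of 4837 had no cover. A start was covered in 3 of the 4 and in 4 of the 5, against 39.1%. In G6pc2, Cacna1a and Cacnb2 this was not the first start, which lay 4130, 11739 and 133 bp from a region. The repolarisation, exocytosis and granule cargo lists below had a covered start in 3 of 4, 3 of 5 and 2 of 5 genes.

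The 4 potassium channel genes that act in repolarisation, apart from the KATP channel, had a median of 14.6%. Kcnk16, the pore gene TALK-1, was at 55.9%, Kcnn3 at 17.5%, Kcnma1 at 11.7% and Kcnq1 at 1.83%. Kcnma1, the large calcium-activated channel gene, carried more regions than Abcc8, with 31 over 505 kb against 4 over 75.5 kb, and the widest over the gene was 6.4 kb against 57.8 kb. In this list the number of regions and the covered share thus gave different orders. Exocytosis genes had a median of 43.2%, with the granule SNARE gene Vamp2 (3.9 kb) covered whole, Syt7 at 49.4%, Snap25 at 43.2%, Unc13a at 17.3% and Stx1a at 6.69%. Genes of granule cargo and its loading had a median of 32.5%, from Ins2 at 10.5% and Ins1 at 12.9% through Iapp at 32.5% and the zinc transporter Slc30a8 at 49.4% to Chga at 69.6%. Over these lists 1 gene, Vamp2, reached 80%, and it is 3.9 kb long. Of all protein-coding genes 371 (1.66%) were covered whole, as Vamp2 was. The share at 80% or more was counted only for genes of at least 50 kb, where it was 0.248%.

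**Figure D5:**
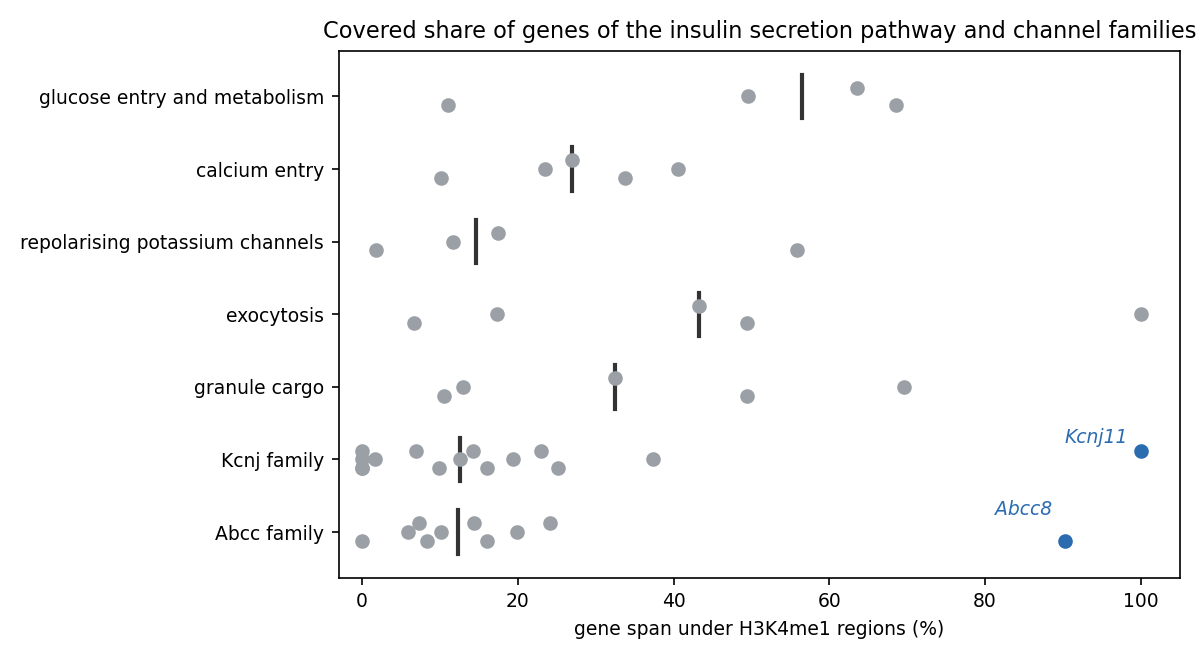
Percent of each gene's span under H3K4me1 regions for genes of the insulin secretion pathway and the Kcnj and Abcc families, with 1 point per gene and a bar at the list median. Kcnj11 (100%) and Abcc8 (90.2%), in blue, lie far above their family medians of 12.6% and 12.2%.

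Marker genes gave a check of the labelled tissue, beside the 64.5% of all protein-coding genes with a region over the gene, the 39.1% with a covered start and their median covered share of 4.76%. Of 8 β-cell markers 7 had a region over the gene (median covered share 21.2%, 0 to 68.6%) and 3 a covered start, with Mafa at 0. Of 5 α- and δ-cell markers 3 had one (median 12.6%, 0 to 51%) and 1 a covered start, with Gcg and Sst at 0. Of 6 acinar and duct markers 3 had one (median 26.6%, 0 to 87.7%). These were the acinar regulator Bhlha15 at 87.7% and the duct genes Krt19 at 53.2% and Sox9 at 58.9%, all with a covered start, whereas the acinar genes Cpa1, Cela2a and Ptf1a were at 0. The acinar and duct list was thus split between bare and broadly covered genes, and its median lies between them. Of 4 leukocyte markers 1 had one (Ptprc, 2.67%) and 0 a covered start, with Cd3e, Itgam and Emr1 at 0. Of 3 endothelial markers 2 had one (Pecam1, 27.7%, and Tek, 1.19%), both with a covered start, with Cdh5 at 0. The hormone genes Ins1 (12.9%), Ins2 (10.5% of an annotated span of 20.9 kb), Gcg (0) and Sst (0) were less covered than Abcc8 and Kcnj11. Whether acinar, duct or endothelial cells carry any of the mark at the channel locus was not tested.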

How the data were processed

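H3K4me1 ChIP-seq of 1 pooled library of cytokine treated mouse islets was used. Per the labels and the study's methods, the authors mapped reads to mm9 with Bowtie2 (2.2.1 in the submitters' processing notes) and called enriched regions with ChromHMM, whose version and settings are not given in the sources used here. The deposited list holds positions (chromosome, start and end), with no score or count. The study's methods merge the loci of untreated and treated islets and then filter them on FPKM. Whether the list precedes these steps is not stated, and a merged list could hold regions called in untreated islets. The list holds 65709 regions, fewer than the study reports for its merged and filtered set.

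Positions were converted to count from 1 and laid over GENCODE M1 genes and the genome of the same build. Covered share is the percent of a gene's span under regions. Repeated sequence was measured as the percent of words of 31 bases found once in the genome. The set of RefSeq promoter sequences available here held no entry for Abcc8 or Kcnj11, so no promoter was printed. Covered length, distance, overlap, the search for the GC box and the counting of words were tested on simulated data. The named genes were the members, their neighbours within 50 kb, the paralogues, and fixed lists by role, family and cell type. A few genes of these lists are not reported here and were left out of the list counts and medians. The members and lists were chosen with earlier results of these data known. Alternatives changed the minimum width, merging, flank, counting rule, transcripts and length class. The work used Python 3.11.15, numpy 2.4.6, scipy 1.17.1, pysam 0.24.0 and matplotlib 3.10.9.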

Additional observations from a re-analysis of the deposited data

How the results depend on the processing

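With 1 library, no replicate could be left out, and the list has no score for a stricter threshold. No paired analysis was possible because 1 sample holds no pair. Of 46 alternative values for 8 results, 36 stayed within a set limit and 10 moved further. The limit was an exact binomial interval for a share (over bins of 200 bp, or over genes), 200 bp for a distance and 1.5 times for a count. Neighbouring bins under 1 region are not independent, so the interval is a yardstick and no measure of stability. The number of regions at the locus was 9 with a flank of 100 kb, 1.5 times the 6 reported. A flank of 20 kb gave a covered share of the locus of 65.8% and one of 100 kb 31.3%, against 45.2%. Merging over gaps of up to 1000 bp put 97.6% of genes below Abcc8 and 98% below Kcnj11, against 97.9% and 98.3%, and genes of similar length gave 99.9% and 94.7%. Merging over gaps of up to 3000 bp, chosen after seeing the data, left 3 regions at the locus, against 6, raised the covered share of Abcc8 to 98.1% and put 96.1% of genes below Abcc8 and 96.2% below Kcnj11, by its construction joining the 4 regions over the genes into 1. In the list so merged 13 of 51618 regions were wider. The start distances of 1403 bp for Abcc8 and 0 for Kcnj11 were identical under each alternative run for them (minimum widths, merging and protein-coding transcripts). Depth, which is unknown, limits what an uncovered stretch shows.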
